A study of Homo sapiens with 2 samples.

Results

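Peaks whose deposited region label was the 3' untranslated region and nothing else are described here, in RNA recovered with a catenin immunoprecipitation (IP) from the human breast cancer cell line MDA-MB-231, an established line of triple-negative, mesenchymal type. Of the 7 region labels in the authors' peak table, this one stood on 1236 of 6195 rows. Many genes are listed once per Ensembl transcript, so 1 transcript stood for each gene symbol, the one with the most tags summed over its peaks. This left 687 of 2440 peaks, or 28.2% (exact Clopper-Pearson 95% interval 26.4 to 29.99%), on 547 of 1658 genes. Apart from the choice of transcript, the members were chosen by the authors' label, with earlier results of these data known. The study consists of 2 samples of the same cell line, with no treatment named in the labels, titled B-catenin and B-input, with 1 library each, and the peaks belong to the B-catenin library. RNA was extracted with phenol and alcohol and sheared to about 300 to 500 bp, per the labels' protocols. No replicate exists, so no difference below has a replicate check and no test across samples was possible; intervals cover counting error only. The sources used here do not give the antibody, the growth of the cells or the library used as background.

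In a messenger RNA the 3' untranslated region follows the stop codon and runs to the poly(A) tail. It carries the polyadenylation signal and many of the binding sites of microRNAs and RNA-binding proteins that set the stability, translation and localisation of the transcript. A 5' untranslated region, usually shorter, and the coding sequence come before it, so a peak that lies wholly in the 3' untranslated region should start after every coding peak of the same transcript. Beta-catenin itself is known as the transcriptional effector of Wnt signalling and as the link between cadherins and the actin cytoskeleton. Positions below are nucleotides (nt) along the listed transcript, counted from 1. The genome build named in the submitters' processing notes is hg18, and no transcript sequence was used here, so no peak sequence is printed.

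The label went against the order of the peaks in 54 of 100 cases, and this followed the strand of the gene. On 78 transcripts, 100 peaks labelled 3' untranslated only could be set against coding-only peaks of the same transcript. Of these, 46 started after the last coding-only peak, 54 ended before the first (54.0%, interval 43.7 to 64.0%), and 0 lay between. The interval treats these peaks as independent, although some transcripts held several of them. Strand was taken from the RefSeq annotation of GRCh38.p14 by gene symbol, which gave it for 468 of the 547 genes. On plus-strand genes 40 of 40 peaks lay after the coding-only peaks. On minus-strand genes 45 of 45 lay before them. The 15 comparisons on genes without a strand entry were mixed, with 6 after and 9 before.

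The same split appeared against other labels. Against peaks labelled 3' untranslated plus coding, which should cover the stop codon, 32 of 32 lay after on the plus strand and 55 of 55 lay before on the minus strand. Against peaks labelled 5' untranslated plus coding, 13 of 13 lay after on the plus strand and 2 of 2, both on 1 transcript, lay before on the minus strand. When every listed transcript was taken on its own, 63 of 63 comparisons with coding-only peaks were after on the plus strand and 90 of 90 before on the minus strand. These transcripts share peaks, so they are not further evidence of the same weight. The distances were large next to the peaks: between the centres of such a peak and the nearest coding-only peak, the median was 2715 nt on the plus strand and 3180 nt on the minus strand, and the smallest was 719.5 nt.

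**Figure D1:**
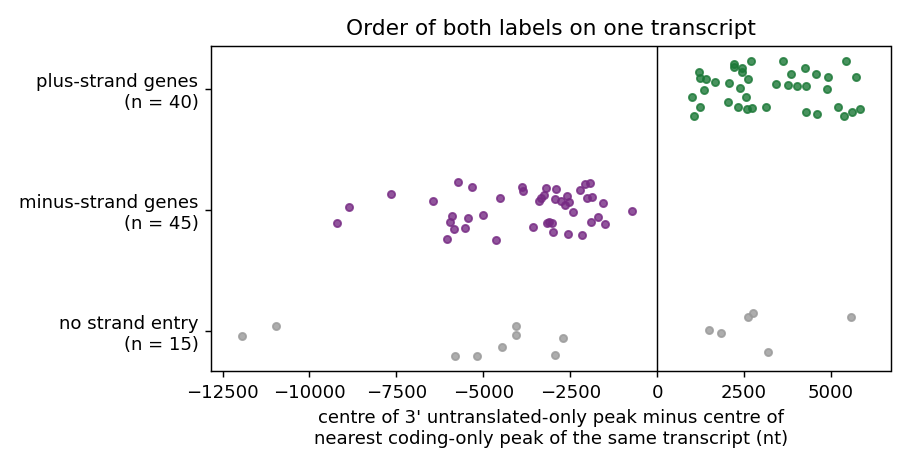
Centre of each peak labelled 3' untranslated only minus the centre of the nearest coding-only peak of the same transcript, in nt, for 40 comparisons on plus-strand genes, 45 on minus-strand genes and 15 without a strand entry; each point is 1 peak, with vertical scatter only for visibility. All plus-strand points lie to the right of 0 and all minus-strand points to the left.

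Single transcripts show the pattern. In WNK1, a kinase that controls ion transport (ENST00000340908, plus strand), 3 coding-only peaks at nt 1205 to 2824, nt 4429 to 5745 and nt 6751 to 8293 were followed by the peak labelled 3' untranslated at nt 8550 to 10567, with 53 tags (Poisson interval 39.7 to 69.3). In HK2, a hexokinase of glycolysis (ENST00000290573, plus strand), the coding-only peak at nt 642 to 3156 held 88 tags and the peak at nt 3857 to 5139 held 38. ALCAM, a cell adhesion molecule (ENST00000306107, plus strand), ran from coding-only at nt 589 to 1473 through 3' untranslated plus coding at nt 1521 to 2344 to 3' untranslated only at nt 3102 to 4445, with 40 tags. These 3 plus-strand transcripts read in the order that an mRNA has.

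On minus-strand genes the sequence of labels ran the other way. AFF4, a scaffold of the super elongation complex of RNA polymerase II (ENST00000265343), had peaks labelled 3' untranslated only at nt 353 to 3240 and nt 3985 to 5291, then a coding-only peak at nt 7155 to 8342, and last a peak labelled 5' untranslated plus coding at nt 8723 to 9412. ABL2, a nonreceptor tyrosine kinase that acts on the cytoskeleton (ENST00000502732), carried the label at nt 418 to 2456 and nt 2493 to 6304, followed by 3' untranslated plus coding at nt 6688 to 9235 and coding-only at nt 9780 to 10796. In HNRNPU, a nuclear RNA-binding protein (ENST00000444376), the labelled peak covered nt 168 to 3673 and the coding-only peak nt 4460 to 5411.

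**Figure D2:**
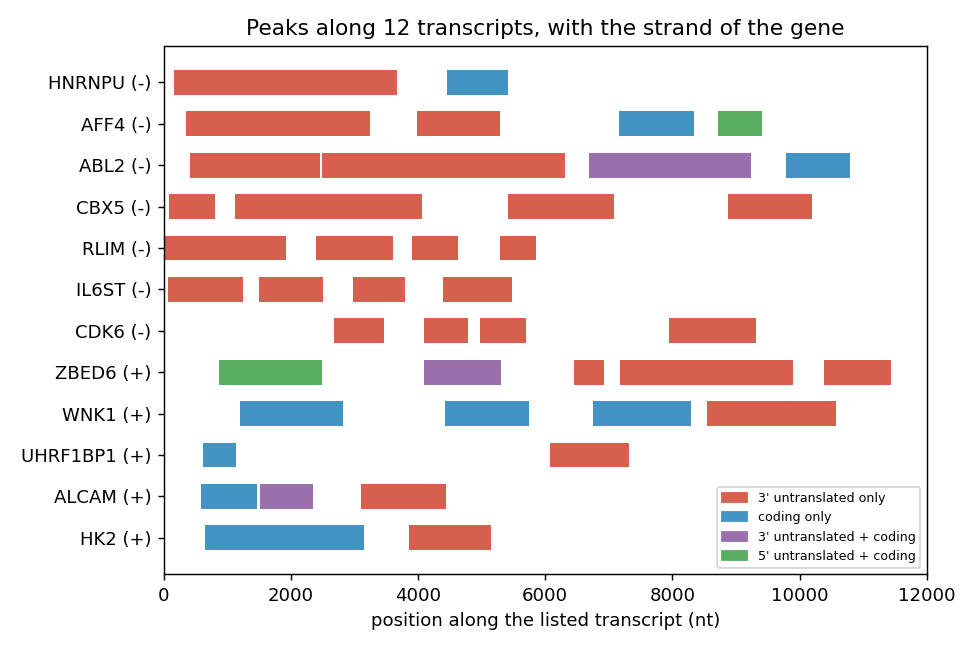
Peaks along 12 listed transcripts, in nt from the transcript start, coloured by the authors' region label, with the strand of the gene in brackets. In the minus-strand genes the peaks labelled 3' untranslated only (red) begin at or near the left of the listed peaks, and in the 5 plus-strand genes they come last.

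The start positions of the labelled peaks differed far more between strands than those of all peaks. On the plus strand the 142 peaks labelled 3' untranslated only started at a median of nt 3502.5 (quartiles 2575 and 5479), and the earliest, in RPS3, at nt 654. On the minus strand the 450 such peaks started at a median of nt 678.5 (quartiles 242 and 1858.5), and the earliest, in the exosome nuclease gene DIS3, at nt 1. Starts within the first 500 nt were found in 0 of 142 plus-strand peaks (upper limit of the exact interval 2.56%) and in 187 of 450 minus-strand peaks (41.6%, interval 37.0 to 46.3%). Over peaks of any label the median start was nt 1048 on the plus strand (1025 peaks) and nt 1184.5 on the minus strand (1026 peaks), and 35.0% and 33.9% started within the first 500 nt.

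**Figure D3:**
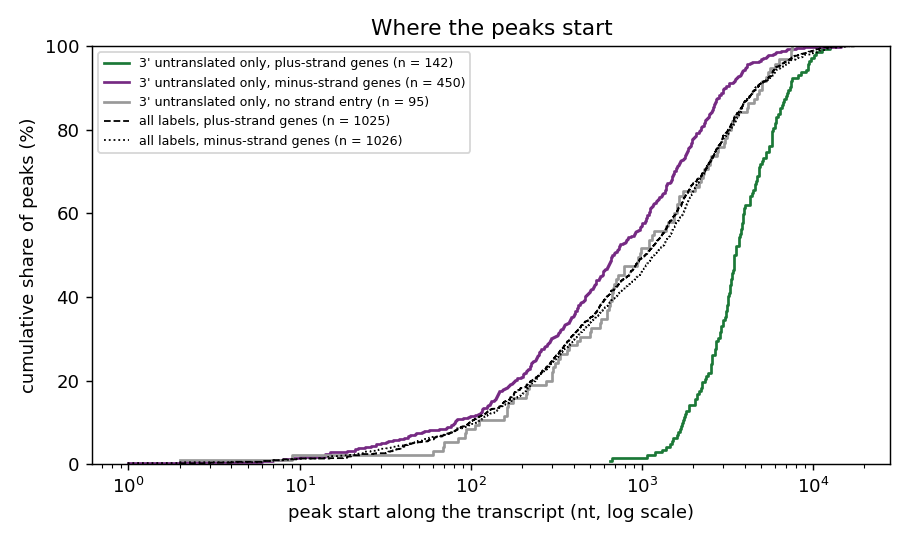
Cumulative share of peaks, in %, by start position along the transcript in nt on a log scale, for peaks labelled 3' untranslated only on plus-strand genes (142), minus-strand genes (450) and genes without a strand entry (95), and for peaks of all labels on each strand (black lines). The black lines run close together, while the plus-strand peaks with the label start at nt 654 or later.

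The label was also given at unequal rates. Of 1025 plus-strand peaks 142 carried it, or 13.9% (interval 11.8 to 16.1%), and of 1026 minus-strand peaks 450 did, or 43.9% (40.8 to 47.0%). By gene, 115 of 697 plus-strand genes with a peak (16.5%) and 353 of 694 minus-strand genes (50.9%) had at least 1. The share of 28.2% over all peaks is therefore a mean over strands with different rates. Which of the label and the listed position departs from the transcript on minus-strand genes was not tested, and whether a minus-strand peak lies in a 3' untranslated region cannot be read from the label. Only the plus-strand peaks had a label that went with the order of the other peaks in every comparison made.

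**Figure D4:**
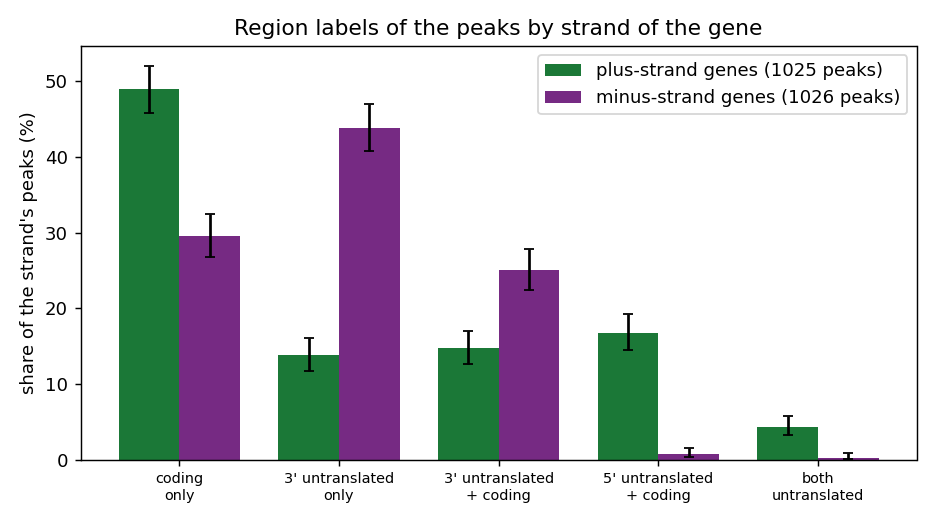
Share of peaks, in %, given each of 5 region labels, among 1025 peaks on plus-strand genes (green) and 1026 peaks on minus-strand genes (purple); bars start at 0 and error bars are exact 95% binomial intervals for counting error. The 3' untranslated-only label stands at 13.9% and 43.9%, the 5' untranslated plus coding label at 16.8% and 0.780%.

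A further check came from genes with several listed transcripts. The same peak, with equal length, summit offset, tags and fold, was listed on at least 1 other transcript of the gene for 232 of the 687 peaks. For 98 of these (42.2%, interval 35.8 to 48.9%) another transcript gave it another label: coding-only alone in 49, 3' untranslated plus coding alone in 33, and both in 9. By strand the other label was met in 2 of 47 plus-strand peaks (4.26%, interval 0.520 to 14.5%) and 81 of 154 minus-strand peaks (52.6%, 44.4 to 60.7%). Coding-only peaks changed label across transcripts in 14 of 273 cases on the plus strand (5.13%) and 45 of 166 on the minus strand (27.1%).

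IL6ST, the signalling receptor chain gp130 shared by interleukin-6 family cytokines and a minus-strand gene, illustrates this; it was picked after its values were seen. On ENST00000336909 its 4 peaks, at nt 72 to 1240, nt 1501 to 2510, nt 2977 to 3791 and nt 4398 to 5484, with 37, 23, 26 and 21 tags, were all labelled 3' untranslated only. On ENST00000381294, where only the first 2 of these peaks were listed, at nt 36 to 1204 and nt 1282 to 2291 with the same 37 and 23 tags, both were labelled coding-only. In GOLGA3, a golgin of the Golgi apparatus that is also on the minus strand, the peak of 77 tags and fold 23.15 was labelled 3' untranslated only at nt 2319 to 3642 of ENST00000204726 and coding-only at nt 2470 to 3793 of ENST00000456883. The label thus varied between transcripts for peaks with the same tags.

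The labelled peaks were mostly thinly covered. Tags, the whole number of sequenced tags in a peak, ranged from 11 to 437, with a median of 22 and quartiles of 16 and 37. The median over coding-only peaks was 24. Over peaks of all labels it was 27, with quartiles of 17 and 54, so low counts were not confined to this label. Lengths ran from 294 to 3949 nt, with a median of 809 nt against 889 nt for coding-only peaks. The direction turned with strand: the medians were 731.5 and 905 nt on the plus strand, and 860 and 846 nt on the minus strand. Density had a median of 26.9 tags per kb of peak (quartiles 22.8 and 34.9), next to 27.0 for coding-only peaks. In 294 peaks (42.8%) fewer than 20 tags were counted. That share was not computed over all labels, where the lower quartile was also under 20 tags. At least 20 tags were counted in 393 of the 687 labelled peaks. Over all labels they were counted in 682 of 1025 plus-strand peaks and 685 of 1026 minus-strand peaks. The label stood on 24.3% of peaks with at least 20 tags and on 28.2% of all peaks, so peaks under 20 tags were more frequent with it. The 687 peaks held 24069 of the 133739 tags over the 2440 peaks, 18.0%, a smaller share than their 28.2% of the peaks.

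The fold enrichment, the peak caller's own ratio as deposited by the authors, ran from 3.37 to 45.73, with a median of 6.95 (quartiles 5.79 and 9.26), and stood at 7.05 for coding-only peaks. A fold of at least 10 was reached by 132 of 687 peaks (19.2%, interval 16.3 to 22.4%), where it was reached by 25.5% of all 2440 peaks and by 24.5% of coding-only peaks. By strand, 21 of 142 plus-strand peaks with the label (14.8%) and 94 of 450 minus-strand peaks (20.9%) reached it, where 25.7% and 24.8% of all peaks on those strands did. Folds fell on whole multiples of 0.57882 (tolerance 0.0051) in 491 of the 687 peaks (71.5%) and in 70.1% of all peaks, so most took stepwise values and small differences between them carry no order. On the plus strand, median tags were 18 for the label and 25 for coding-only peaks, and median density 25.3 and 27.1 tags per kb. On the minus strand the corresponding medians were 24 and 22.5 tags, and 28.1 and 26.8 tags per kb.

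**Figure D5:**
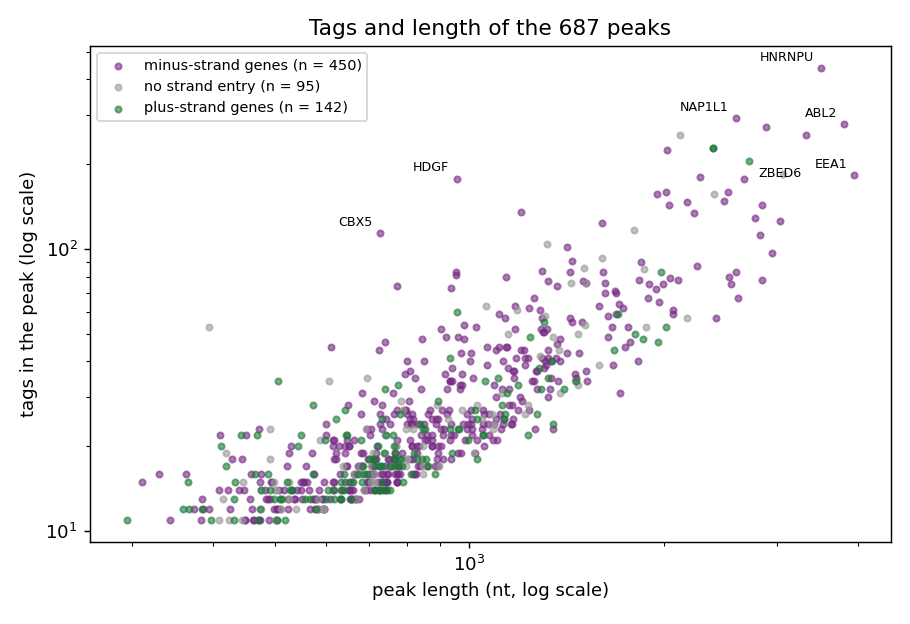
Tags against length in nt, both on log scales, for the 687 peaks labelled 3' untranslated only, coloured by the strand of the gene. Most peaks lie between 11 and 40 tags; HNRNPU has the most tags (437), EEA1 the longest peak (3949 nt), and HDGF and CBX5 stand above peaks of their length.

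By tags, HNRNPU led with 437 tags (interval 397 to 480), although its fold was 6.56. NAP1L1, a histone chaperone, followed with 292 tags (259 to 327) at nt 439 to 3030 of ENST00000618691 and a fold of 4.02. The second peak of ABL2 held 277 tags (245 to 312) and AFF4 270 (239 to 304), so that the intervals of these 3 overlap and their order is not settled. YWHAZ, the signalling adaptor 14-3-3 zeta, had 255 tags at nt 212 to 2332 of ENST00000395957. BCLAF1, a nuclear protein of transcription and RNA processing, had 253 at nt 77 to 3405 of ENST00000531224, and NUCKS1, a chromatin-associated phosphoprotein, 224 at nt 223 to 2249 of ENST00000367142. Of the 10 peaks with the most tags, 6 were on minus-strand genes, 3 on plus-strand genes and 1, that of YWHAZ, on a gene without an entry.

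The 3 on plus-strand genes stand for 2 sets of tags. AKAP2, a kinase-anchoring protein (ENST00000374525), and the readthrough gene PALM2-AKAP2 (ENST00000374530) both had a peak of 2387 nt with 229 tags (200 to 261) and a fold of 21.53, at nt 3306 to 5692 and nt 3947 to 6333. It is not known if each read was counted once or for both symbols. ZBED6, a zinc finger repressor encoded inside an intron of ZC3H11A (ENST00000550078), had 205 tags (178 to 235) at nt 7184 to 9897 and a fold of 29.82, and a peak of the same length, tags and fold was listed under another symbol too. In all, 7 labelled peaks of at least 20 tags had such a counterpart, among them those of NUDT3 and its readthrough RPS10-NUDT3, with 24 tags each.

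By density the order was different. HDGF, a heparin-binding growth factor, had 186 tags per kb from 178 tags in 955 nt (nt 247 to 1201 of ENST00000357325), and the first peak of CBX5, which encodes heterochromatin protein HP1 alpha, had 157 from 114 tags in 727 nt. HNRNPU stood at 125, YWHAZ at 120, and NAP1L1 and the RNA-binding protein gene HNRNPDL both at 113. NUCKS1 stood at 111 and the AKAP2 pair at 95.9. Folds were 6.01 for HDGF, 15.69 for CBX5 and 3.87 for HNRNPDL.

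By fold, ABL2 led with 45.73 and had a further peak at 29.52 with 144 tags. TRIP12, a ubiquitin ligase, stood at 32.99 with 124 tags at nt 97 to 1699 of ENST00000283943, AFF4 at 30.68 and ZBED6 at 29.82. ENAH, the actin regulator Mena, stood at 27.43 with 81 tags, and ASAP1, a GTPase-activating protein for ARF, at 25.47 with 117. NUFIP2, a partner of the fragile X protein, stood at 23.98 with 178 tags, and DDX6, a helicase of processing bodies, at 23.73 with 147. GOLGA3 closed the list at 23.15. Of these 10 peaks, ZBED6 alone was on a gene annotated to the plus strand; 8 were on the minus strand and ASAP1 had no entry.

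The longest peak, of 3949 nt, lay on EEA1, the tether of early endosomes (nt 364 to 4312 of ENST00000322349), with 183 tags. It was followed by ABL2 (3812 nt), HNRNPU (3506 nt) and BCLAF1 (3329 nt). The shortest were on MDM4, a regulator of p53 (294 nt, 11 tags), PPP1R10, a nuclear subunit of protein phosphatase 1 (311 nt, 15 tags), FAM60A, a subunit of the SIN3 deacetylase complex (330 nt, 16 tags), LIN7C, a polarity scaffold (344 nt, 11 tags), and the transcription factor gene SP1 (360 nt, 12 tags).

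Among plus-strand genes, where the label went with the order of the peaks in every comparison made, the counts were lower. The 10 with the most tags were added after their values were seen. After AKAP2, PALM2-AKAP2 and ZBED6 came RBMS2, an RNA-binding protein, with 83 tags (66.1 to 103) at nt 2675 to 4658 of ENST00000262031 and a fold of 10.89. LARP1, which binds mRNAs of the translation machinery, had 60 tags (45.8 to 77.2) at nt 3280 to 4234 of ENST00000336314, with a fold of 19.26. MPRIP, which targets myosin phosphatase to actin, had 59, POFUT1, an O-fucosyltransferase that modifies Notch, 55, WNK1 53, NUDT4 50 and UHRF1BP1 49. Folds of these last 5 ran from 4.77 to 12.16. From RBMS2 downward the Poisson interval of each gene overlapped that of the next. POFUT1 had no peak of another label, and the only other label on RBMS2 and MPRIP was both 3' and 5' untranslated. For these genes no order was compared.

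Several peaks with the label were found on 114 of the 547 genes (20.8%, interval 17.5 to 24.5%), which together held 254 of them. The same share was not computed for other labels, so whether it is particular to this one is not known. Over all labels 2440 peaks stood on 1658 genes. There were 92 genes with 2, 18 with 3 and 4 with 4. The share of genes with at least 2 was 18.3% of 115 plus-strand genes (11.7 to 26.5%) and 21.8% of 353 minus-strand genes (17.6 to 26.5%), with intervals that overlap widely. Between neighbouring peaks of a gene, 140 gaps ran from 1 to 8177 nt with a median of 557.5 nt, and 16 were under 100 nt, so that some neighbours may be 1 region divided by the peak caller.

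The 4 genes with 4 peaks, CBX5, RLIM, IL6ST and CDK6, were all on the minus strand and had no peak of another label. CBX5 (ENST00000209875) had 114 tags at nt 81 to 807, 97 at nt 1119 to 4066, 53 at nt 5422 to 7086 and 30 at nt 8870 to 10191. RLIM, a ubiquitin ligase of X inactivation (ENST00000332687), had 67, 44, 24 and 17 tags between nt 24 and 5847, with its highest fold, 15.63, on the second peak. In both genes the first peak held the most tags. CDK6, a cyclin-dependent kinase of the G1 phase (ENST00000265734), differed in that its first peak started at nt 2684 and its last, at nt 7942 to 9321, held the most, 40 against 15 to 19 for the others.

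Of the 22 genes with at least 3 such peaks, the 10 with the most tags also included NUCKS1 (307 tags in 3 peaks), ZBED6 (241), the chromatin regulator gene ASXL2 (147), BCAT1, an aminotransferase of branched-chain amino acids (144), EIF2AK2, the double-stranded RNA sensor kinase PKR (138), and GFPT1, the first enzyme of the hexosamine pathway (109). In GFPT1 the last 2 peaks, at nt 5090 to 5830 and nt 5832 to 6279, were 1 nt apart. ZBED6 was the only one of the 10 on the plus strand. Its labels ran from 5' untranslated plus coding at nt 867 to 2493, through 3' untranslated plus coding at nt 4092 to 5297, to 3 peaks labelled 3' untranslated only between nt 6451 and 11431. Other listed transcripts of ZBED6 gave 2 of these peaks another label. The peak at nt 6451 to 6926 was also labelled 5' untranslated only, and that at nt 7184 to 9897 both 3' and 5' untranslated. They were the 2 plus-strand peaks whose label changed across transcripts.

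Of the 547 genes, 377 had no peak of another label, and 170 had at least 1; 78 had a coding-only peak. For the 377 the order of labels could therefore not be examined on their own transcript. What remained was strand and, for peaks also listed on other transcripts, the label given there. EGFR, the epidermal growth factor receptor and a marker of basal breast cancer cells (ENST00000275493, plus strand), had the full series: 5' untranslated plus coding at nt 2 to 1988 with 79 tags, 3' untranslated plus coding at nt 2178 to 5738 with 173, and 3' untranslated only at nt 5808 to 6916 and nt 7487 to 8631 with 35 and 31. Their folds lay close together, from 10.42 to 11.39.

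Lists of genes whose products act on 3' untranslated regions or near catenin were looked up; among all genes with a peak, 33% had the label. Of 23 genes of proteins that bind 3' untranslated regions, 9 had a peak and 2 had the label: CPEB4, a cytoplasmic polyadenylation factor (23 tags at nt 3895 to 4828, plus strand), and PUM2, a Pumilio repressor (22 tags at nt 179 to 1038, minus strand). Of 25 genes of microRNA silencing and mRNA decay, 11 had a peak and 6 the label, with 7 labelled peaks of median 16 tags. AGO2, the slicing Argonaute, had a peak of 29 tags (fold 12.16) and another of 19. AGO2 had no strand entry, and another transcript labelled its first peak 3' untranslated plus coding. The exporter gene XPO5 had 20 tags, and DICER1 and the decapping gene DCP1A had 16 each. XPO5, DICER1 and DCP1A were on the minus strand, and the DICER1 peak was coding-only on another transcript. In the cleavage and polyadenylation list 6 of 20 had a peak and 2 the label: NUDT21, which recognises the UGUA element upstream of poly(A) sites (67 tags at nt 1008 to 2265), and WDR33, which recognises the poly(A) signal (23 tags). All 3 labelled peaks of that list were on minus-strand genes.

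Of 24 mRNAs known for AU-rich 3' ends, 2 had a peak and CCND1, cyclin D1, had the label, with 61 tags (46.7 to 78.4) at nt 2203 to 3389 of ENST00000227507, after a peak at nt 114 to 2083. CCND1 had no strand entry. In the Wnt list 9 of 33 had a peak and 3 the label: the ubiquitin ligase adaptor FBXW11 (20 tags), the coactivator BCL9L (13) and the kinase GSK3B (12). FBXW11 and GSK3B were on the minus strand and BCL9L had no strand entry. Other transcripts of FBXW11 and BCL9L labelled the peak 3' untranslated plus coding. In the adherens junction list 10 of 20 had a peak and 2 the label. The phosphatase gene PTPN14 had 87 tags at nt 2216 to 4470 (fold 18.52, minus strand), and AFDN, the junction scaffold afadin, had 22 at nt 6038 to 6780, the last of its 5 peaks (plus strand). CTNNB1 carried no peak with the label on the transcript used. Of 27 ubiquitin conjugation genes 11 had a peak and 4 the label: the cullin gene CUL3 (83 tags), SMURF1 (79), MDM2 (35, plus strand) and NEDD4. Apart from MDM2, these labelled genes were on the minus strand. Of 29 small GTPase genes 2 had a peak and 0 the label. Among markers, a peak was listed for 4 of 12 mesenchymal and basal genes, 1 of which, EGFR, had the label, and 0 of 12 luminal and 0 of 8 immune and blood genes had any peak.

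The authors joined KEGG pathways to the transcripts, and 26 of these held at least 20 genes with a peak. Among them the share of genes with the label was lowest in RNA transport (10.6%, 5 of 47 genes) and the spliceosome (18.5%, 5 of 27). It was highest in MAPK signalling (51.9%, 14 of 27), HTLV-I infection (51.7%, 15 of 29) and Hippo signalling (50%, 12 of 24). Among all genes with a peak it was 33%, and most of the 26 pathways lay above that share. Over the genes with any pathway it was not computed. On the minus strand were 18 of the 47 RNA transport genes and 10 of the 27 MAPK genes. Pathways share genes and were ranked after their values were seen.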

How the data were processed

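One peak table was analysed, that of the catenin IP library; values of the input library were not analysed here. Per the file headers it lists the transcript, region label, start, end, length, summit, tags and fold enrichment of each peak. Tags are whole-number counts deposited by the authors, and the fold enrichment is the authors' ratio. A further column, a score deposited by the authors whose name was lost to a spreadsheet, served only as a filter. The summit never exceeded the length and lay below the start in 3918 of 6195 rows, so it was counted from the peak's start. The submitters' processing notes name hg18; aligner, peak caller and annotation: not given in the sources used here. Sequencing depth is unknown.

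For each symbol the transcript with the most summed tags was used (ties: lowest identifier). Of 1658 symbols, 1592 were found in the RefSeq table of GRCh38.p14, 46 under an older symbol, and 1391 had a strand in the promoter table; its coordinates were not used. The order of labels was compared by start and end. The procedure was checked on simulated transcripts whose label order was set beforehand, which tests only the comparison of positions. Intervals are exact Poisson or Clopper-Pearson intervals at 95% (Python 3.11.15, scipy 1.17.1, pandas 2.3.3). Named genes follow a fixed rule: the 10 highest by tags, density and fold, the 5 longest and shortest, genes with at least 3 such peaks (the 10 with the most tags), the 5 with the most tags on each side of coding-only peaks, and up to 3 per list. The members and lists were chosen with earlier results of these data known. A comparison with RefSeq coding lengths, planned as well, was not run because no protein lengths were used here. The strand comparison, the comparison across transcripts and the pathways were added after seeing the data. A symbol turned into a date by a spreadsheet was not named, and a few genes that the rule selects are not reported here.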

Additional observations from a re-analysis of the deposited data

How the results depend on the processing

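The alternatives were score minimums of 50 and 100, at least 20 tags, the transcript with the highest fold, every transcript on its own, summits in place of spans for the order and, added after seeing the data, each strand alone. Of 70 values under these, 42 stayed within 1.5 times or, for shares, within the interval, and 28 moved. The share of comparisons before the coding-only peaks, 54.0% in all, was 0% on plus-strand genes only and 100% on minus-strand genes only, and each strand kept its value under every alternative run, though a score of at least 100 left 1 and 2 comparisons (75% before over the 4 of all genes). The count of 687 peaks fell to 398 at a score of 50, 163 at 100 and 393 at 20 tags and was 1236 with every transcript; their share became 25.2%, 19.8%, 24.3% and 20%, and genes (with every transcript, transcripts) with several numbered 57, 16, 49 and 184. The plus-strand share of the label became 10.3%, 5.17%, 9.24% and 9.34%, and the minus-strand share 36.7% at a score of 100 and 33.3% with every transcript. At a score of 100 the medians were 1319 nt of length, 53 tags, 40.8 tags per kb, a fold of 11.6 and a start at nt 629; at 20 tags they were 34 tags and a start at nt 826. A minimum of 20 tags raises the median tags by construction, and every transcript counts more units. The cause of the other shifts, among them those of density and fold, was not tested. The transcript with the highest fold moved no value that far. No paired analysis was possible because IP and input are single libraries. The settings for RefSeq coding length were not run. Many peaks rest on few tags, which limits their order.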

Other observations

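The other labels split by strand in the same way. Peaks labelled 3' untranslated plus coding lay after the coding-only peaks in 38 of 38 comparisons on plus-strand genes and before them in 77 of 77 on minus-strand genes. Peaks labelled 5' untranslated plus coding lay before the coding-only peaks in 31 of 31 comparisons on the plus strand and after them in 2 of 2 on the minus strand. This last label was given to 172 of 1025 plus-strand peaks, which started at a median of nt 127, and to 8 of 1026 minus-strand peaks, which started at a median of nt 2400.5 and never before nt 1565. Coding-only peaks were 49.0% of plus-strand peaks and 29.6% of minus-strand peaks.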
